A study of Mus musculus with 20 samples.

Results

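The fatty acid desaturases and elongases are the enzymes that add double bonds and carbon pairs to fatty acids after their synthesis or uptake. Of the 25238 genes listed in both count tables, 9 were taken as members by their Ensembl identifiers in the GRCm38 mouse annotation: Scd1, Scd2, Elovl1, Elovl3 and Elovl6, which act on saturated and monounsaturated chains, and Fads1, Fads2, Elovl2 and Elovl5, which act on polyunsaturated chains.

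Stearoyl-CoA desaturases put a first double bond into palmitate and stearate, giving palmitoleate and oleate, the main monounsaturated fatty acids of liver triglyceride. Elovl6 lengthens palmitate to stearate, and Elovl3 and Elovl1 act on longer saturated and monounsaturated chains. Linoleate and alpha-linolenate from the diet are instead desaturated by Fads2 and then Fads1, with Elovl5 and Elovl2 adding carbons between and after these steps, which yields arachidonate and docosahexaenoate. In liver, many of these genes are known targets of the transcription factors SREBP-1c, LXR and ChREBP, and polyunsaturated fatty acids themselves lower the expression of several.

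Read counts per gene came from 20 livers of male C57BL/6J mice, 5 for each of 4 vectors, and the series concerns the role of Pklr, the liver pyruvate kinase gene of the last step of glycolysis, in fatty liver disease. In the knockdown experiment, livers received a hairpin RNA against Pklr (shPKLR) or, as its control, a hairpin against firefly luciferase (shLUC). In the overexpression experiment, livers received the Pklr coding sequence (PKLR) or, as its control, GFP. All 4 groups carried their insert in an adeno-associated virus of serotype AAV8 with the thyroxine binding globulin promoter, which is active in hepatocytes, were injected in a vein at 8 weeks of age, and ate the diet named HF/HS until sampling at 25 weeks. Every mouse thus received a virus and the diet, and the vectors act beside the mouse's own Pklr gene.

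Library totals ran from 29933820 to 45413803 counts in 19 livers and reached 167891680 in shPKLR replicate 4, and 20957 to 25250 genes had a count in a liver. Pklr, the check of the labels, was at 54.9 ± 23.3 CPM (counts scaled to a library of 1000000) in shPKLR livers and 479 ± 116 CPM in shLUC livers (SD, n = 5 each), a log2 fold change of -3.13 (SE 0.30, edgeR adjusted p = 0.0027). It was at 741 ± 210 CPM in PKLR livers and 118 ± 34.5 CPM in GFP livers (SD, n = 5 each), a log2 fold change of 2.67 (SE 0.28, edgeR adjusted p = 0.0023). The 6 hepatocyte markers were present in every group and summed to between 69801 and 118785 CPM in a liver. All values here are from whole tissue, in which fewer cells of a type and less RNA per cell cannot be told apart.

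Per exon length, Scd1 was by far the most abundant member. Scaled to kilobases of exon (RPKM), it stood at 1079 ± 426 in shPKLR livers, 2930 ± 1318 in shLUC livers, 1793 ± 751 in PKLR livers and 1967 ± 903 in GFP livers (SD, n = 5 each), and in each group its lowest liver was above the highest liver of any other member. Elovl5 came next in every group, with RPKM means of 151 in shPKLR livers, 329.5 in shLUC livers, 277 in PKLR livers and 245 in GFP livers. Elovl5 did not overlap the gene ranked after it in shLUC and GFP livers, and did overlap it in shPKLR and PKLR livers. Fads1, Fads2, Elovl2 and Elovl3 lay close together, between 85.9 and 160.2 RPKM in their group means, and each overlapped its neighbour in this order in every group. Scd2, Elovl6 and Elovl1 formed the low end, between 8.11 and 33.1 RPKM in their group means, and likewise overlapped their neighbours. Of the summed RPKM of the 9 genes, Scd1 made up a median of 63.3% in shPKLR livers and 75.8% in shLUC livers, and of 67.2% in PKLR livers and 71.3% in GFP livers.

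The genes differed widely in how much they varied between livers. Measured as the root mean square deviation of log2 CPM from the mean of the 4 groups, Scd2 varied most at 1.28, followed by Scd1 at 0.85, Fads2 at 0.80 and Elovl6 at 0.75. Elovl1, an elongase of very long chains that most tissues express, varied least at 0.09 and stayed between 33.9 and 43.8 CPM in all 20 livers.

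The start regions of Elovl6 and Elovl5 are shown because these were the members whose response differed between the experiments, as given further on, and that of Fads2 because it is the gene that begins the polyunsaturated route. They are RefSeq promoter windows of 300 bases in GRCm38.p6, running 250 bases before to 50 after the annotated start and written 5′ to 3′ on the gene's own strand. Capitals mark matches, on either strand, to the letters of an E-box (CACGTG), which ChREBP and SREBP proteins among others can bind, of a GC box (GGGCGG), or of a CCAAT box, whose name gives its letters.
Elovl6, chr3:129532136-129532435, plus strand: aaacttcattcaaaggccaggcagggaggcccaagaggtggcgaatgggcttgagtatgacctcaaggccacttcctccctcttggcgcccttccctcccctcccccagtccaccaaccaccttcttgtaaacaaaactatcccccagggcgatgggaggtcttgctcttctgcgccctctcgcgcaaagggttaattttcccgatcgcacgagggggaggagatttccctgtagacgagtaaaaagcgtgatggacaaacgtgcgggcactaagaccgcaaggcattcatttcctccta
Elovl5, chr9:77917115-77917414, plus strand: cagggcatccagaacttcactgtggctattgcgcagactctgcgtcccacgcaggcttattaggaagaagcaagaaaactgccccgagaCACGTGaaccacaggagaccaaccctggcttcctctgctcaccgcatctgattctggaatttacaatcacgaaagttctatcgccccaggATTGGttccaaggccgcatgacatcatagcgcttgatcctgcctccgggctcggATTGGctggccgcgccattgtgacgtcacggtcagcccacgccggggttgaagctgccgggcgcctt
Fads2, chr19:10101454-10101753, minus strand: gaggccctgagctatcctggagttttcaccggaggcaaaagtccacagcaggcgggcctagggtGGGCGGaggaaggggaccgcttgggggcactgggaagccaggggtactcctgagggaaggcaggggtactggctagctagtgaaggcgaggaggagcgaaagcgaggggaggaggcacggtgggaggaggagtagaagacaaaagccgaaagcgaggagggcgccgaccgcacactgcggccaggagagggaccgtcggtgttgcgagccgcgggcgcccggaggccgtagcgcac
The Elovl5 window held an E-box that begins 161 bases before the start and CCAAT boxes on the opposite strand at 71 and 17 bases before it. The Fads2 window held 1 GC box, 186 bases before the start, and the Elovl6 window held 0 matches to these 3 motifs. Over all 32851 RefSeq promoter windows, an E-box was found in 7.15%, a CCAAT box in 37.4% and a GC box in 35.7%. No matches overlapped in the windows printed; in 1 window of Elovl1 a GC box and a CCAAT box did. RefSeq windows were matched for 5 of the 9 members, the others being Elovl1 and Elovl2. Such a match is a match of letters in this window and no more.

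The knockdown comparison addresses which of these enzymes differ when Pklr is reduced. All 9 had lower means in shPKLR livers than in shLUC livers, with a median log2 fold change of -0.70, against 0.02 over the 15611 genes tested, of which 47.2% were lower. None of the 9 passed an adjusted p of 0.05 in edgeR's quasi-likelihood test, in which 0.00641% of all genes did, Pklr being the single call. At an unadjusted p under 0.05 there were 5 of 9 (Scd1, Scd2, Elovl6, Fads1 and Elovl5), against 15% of all genes. DESeq2 called 3 of 9 (Scd1, Elovl6 and Elovl5) and limma-voom called 0.

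Among the desaturases of saturated chains, Scd1 (ENSMUSG00000037071, GRCm38 chr19:44394455-44407879, minus strand), the main stearoyl-CoA desaturase of mouse liver, stood at 5806, 4627, 6734, 1997 and 7220 CPM in shPKLR replicates 1 to 5, against 7215, 16118, 8322, 17565 and 22454 CPM in shLUC replicates 1 to 5. The groups met at their edges, where the highest shPKLR liver lay just above the lowest shLUC liver. The log2 fold change was -1.45 (95% interval -2.26 to -0.65; SE 0.37; edgeR adjusted p = 0.198; DESeq2 adjusted p = 0.00795).
Scd2 (ENSMUSG00000025203, chr19:44293674-44306864, plus strand), the desaturase isoform best known from brain and from newborn mice, stood at 13.4, 46.7, 63.7, 5.36 and 92.4 CPM in shPKLR livers, against 63.7, 188, 82.9, 78.0 and 270.3 CPM in shLUC livers. Its shPKLR livers spread over more than 1 order of magnitude, the highest at 17.2 times the lowest, and overlapped the controls. Its log2 fold change was -1.64 (95% interval -3.04 to -0.23; edgeR adjusted p = 0.299).

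The Scd genes lie next to each other and resemble each other in sequence: 4.56% of the 50-base windows of Scd1 transcripts, and 3.97% of those of Scd2, also occur in another gene. Scd2 held 0.23% to 1.28% of the CPM of Scd1 in shPKLR livers and 0.44% to 1.20% in shLUC livers, and 1.11% to 1.43% in PKLR livers and 0.99% to 1.29% in GFP livers. Scd3, another stearoyl-CoA desaturase gene of the cluster, kept a median of 53.5% of the CPM of Scd2 in shPKLR livers, 54.6% in shLUC livers, 54.4% in PKLR livers and 55.3% in GFP livers. How reads that fit several places were counted is not given in the sources used here, so the levels of Scd2 and Scd3 are uncertain, and the part of shared reads in the lower Scd2 level was not tested.

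Among the elongases of saturated and monounsaturated chains, Elovl6 (ENSMUSG00000041220, chr3:129532355-129638495, plus strand), whose start region is shown above, stood at 119, 76.3, 46.1, 54.7 and 68.6 CPM in shPKLR livers, against 89.2, 189, 115, 334 and 337 CPM in shLUC livers. Of the shPKLR livers replicate 1 alone entered the control range, above shLUC replicates 1 and 3, while shLUC replicates 4 and 5 stood far above every other liver. On the log2 scale the fold change was -1.56 (95% interval -2.37 to -0.74; SE 0.38; edgeR adjusted p = 0.188; DESeq2 adjusted p = 0.00383).
Elovl3 (ENSMUSG00000038754, chr19:46131897-46135694, plus strand), an elongase that is strongly regulated in liver and brown fat, ranged over 132 to 432 CPM in shPKLR livers with a median of 274, and over 205 to 487 CPM in shLUC livers with a median of 242. Its groups lay on top of each other, with a log2 fold change of -0.10 (95% interval -0.77 to 0.57). Elovl1 (ENSMUSG00000006390, chr4:118428093-118432953, plus strand) averaged 36.0 ± 2.25 CPM in shPKLR livers and 37.9 ± 3.76 CPM in shLUC livers (SD, n = 5 each), a log2 fold change of -0.08 (95% interval -0.31 to 0.14). The lower levels on the saturated and monounsaturated side were thus those of Scd1, Scd2 and Elovl6, and the 5 genes had a median log2 fold change of -1.45. Of the 50-base windows of Elovl6 transcripts 3.98% also occur in other genes. Elovl6 shares 34 exon bases with the antisense gene Gm35986, Elovl1 shares 53 with Cdc20 and Elovl3 shares 10 with Pitx3, each on the opposite strand, and whether reads were counted by strand is unknown here.

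On the polyunsaturated side, Elovl5 (ENSMUSG00000032349, chr9:77917364-77984519, plus strand), which lengthens the products of Fads2 and also palmitoleate, stood at 764, 428, 471, 330.2 and 672 CPM in shPKLR livers, against 897, 1247, 800.0, 1456 and 1403 CPM in shLUC livers. It was the 1 member of 9 whose groups did not overlap, all 5 shPKLR livers being below all 5 shLUC livers, which held for 1.81% of all genes tested. The log2 fold change was -1.13 (95% interval -1.67 to -0.60; SE 0.25; edgeR adjusted p = 0.146; DESeq2 adjusted p = 0.00191).
Fads2 (ENSMUSG00000024665, chr19:10062765-10101746, minus strand), the first desaturase of the polyunsaturated route, stood at 125, 271, 323, 68.4 and 694 CPM in shPKLR livers, against 363, 518, 371, 504 and 580.3 CPM in shLUC livers. Of the shPKLR livers, 4 lay below every control and replicate 5 above every control. For the group as a whole the log2 fold change was -0.67 (95% interval -1.68 to 0.35; edgeR adjusted p = 0.479), and it was -1.26 without shPKLR replicate 5 and -0.41 without shPKLR replicate 4.
Fads1 (ENSMUSG00000010663, chr19:10182888-10196877, plus strand), the desaturase that makes arachidonate, stood at 326, 383, 447, 243 and 667 CPM in shPKLR livers, against 516, 674, 609, 781 and 759 CPM in shLUC livers. Again shPKLR replicate 5 alone lay within the control range, and the log2 fold change was -0.70 (95% interval -1.21 to -0.19; edgeR adjusted p = 0.266).
Elovl2 (ENSMUSG00000021364, chr13:41182381-41220405, minus strand), the elongase needed for docosahexaenoate, stood at 336, 365, 469.9, 224 and 826 CPM in shPKLR livers, against 545, 699, 466, 552 and 659.5 CPM in shLUC livers. Here too replicate 5 exceeded every control, and the log2 fold change was -0.40 (95% interval -1.02 to 0.21; edgeR adjusted p = 0.479), with -0.75 without shPKLR replicate 5 and -0.24 without shPKLR replicate 4. The 4 genes had a median log2 fold change of -0.68.

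**Figure D1:**
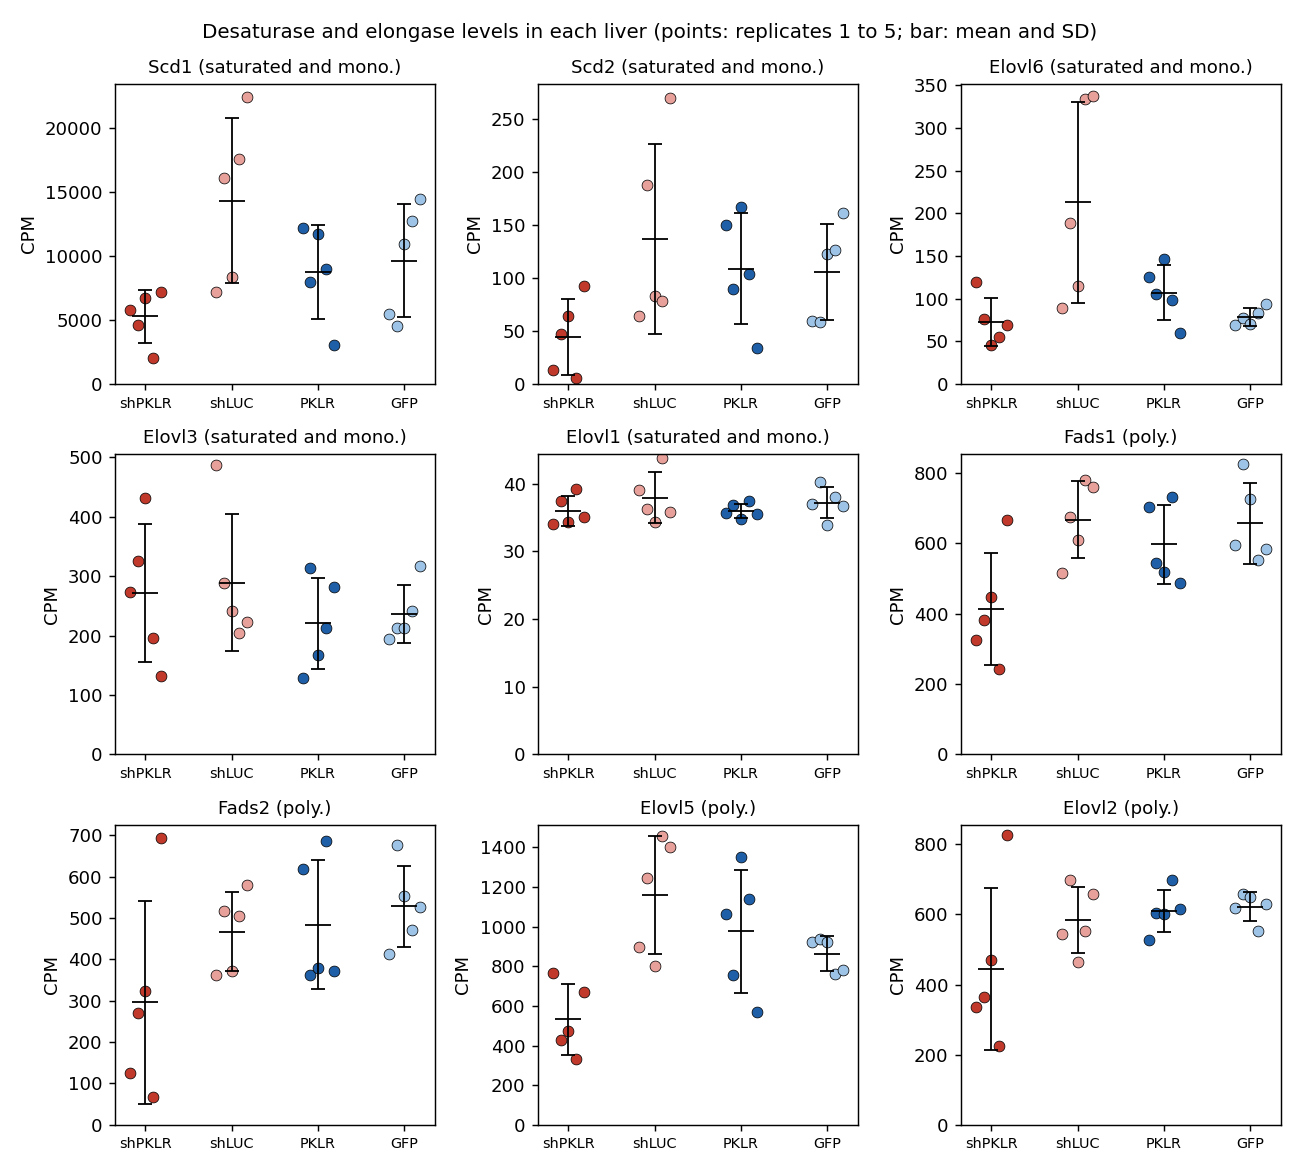
CPM of the 9 genes in each liver (points, replicates 1 to 5 from left to right) with the group mean and SD, for shPKLR, shLUC, PKLR and GFP livers; each panel has its own axis from 0. Elovl5 in shPKLR livers (330.2 to 764 CPM) lies below all shLUC livers, while Fads2 and Elovl2 have 1 shPKLR liver, replicate 5, above all controls.

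The livers of the shPKLR group did not form 1 cloud. Replicate 4 was the lowest shPKLR liver for Scd1, Scd2, Fads1, Fads2, Elovl2 and Elovl5, and replicate 5 was the highest for Scd1, Scd2, Fads1, Fads2 and Elovl2. Pklr itself was at 71.9, 53.0, 40.9, 25.4 and 83.3 CPM in shPKLR replicates 1 to 5, so that replicate 4 also had the lowest and replicate 5 the highest Pklr. Replicate 4 is the library of 167891680 counts; after its counts were thinned to a depth like that of the others, the log2 fold change of Fads2 was -0.66 and that of Elovl2 was -0.41, against -0.67 and -0.40 with all counts. Without replicate 5, 8 of the 9 log2 fold changes were negative and Elovl3 was at 0.07. Macrophage markers were higher in 6 of 6 and lymphocyte markers in 5 of 5 in shPKLR livers, 0 of them passing in edgeR and 0 at an unadjusted p under 0.05. Cholangiocyte markers were higher in 3 of 4 and stellate cell and fibroblast markers in 3 of 6. Lower were 4 of 5 endothelial, 4 of 6 hepatocyte and 2 of 3 erythroid markers and the 1 adipocyte marker tested, beside 47.2% of all genes. Macrophage markers summed to between 75.3 and 189 CPM in shPKLR livers and between 81.6 and 143 CPM in shLUC livers. The part of these cell types in the values of the enzymes was not tested.

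Set against each other, the means of both enzyme classes were lower in shPKLR livers by similar amounts, while their medians lay further apart. The mean log2 CPM of the saturated and monounsaturated enzymes lay 1.01 ± 0.49 below the shLUC mean and that of the polyunsaturated enzymes lay 0.87 ± 0.70 below it (SD, n = 5 each). The first of these means includes Elovl1 and Elovl3, with log2 fold changes of -0.08 and -0.10. The median log2 fold change was -1.45 for the saturated and monounsaturated enzymes and -0.68 for the polyunsaturated ones.

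The difference between the classes, saturated and monounsaturated less polyunsaturated, was -1.06, -0.97, -1.10, -1.13 and -1.95 in shPKLR livers, against -1.20, -1.05, -1.22, -1.17 and -0.86 in shLUC livers. The first 4 shPKLR livers lay within the control range and replicate 5 far below it. The group means were -1.24 ± 0.40 in shPKLR livers and -1.10 ± 0.15 in shLUC livers (SD, n = 5 each), a difference of -0.14 that is smaller than the spread between livers and turned to 0.03 without replicate 5. With Elovl1 and Elovl5 set aside the difference was -0.47. Elovl1 had the smallest log2 fold change of its class (-0.08) and Elovl5 the largest fall of its own (-1.13), so leaving both out widens the gap. These class values are a description and carry no test.

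**Figure D2:**
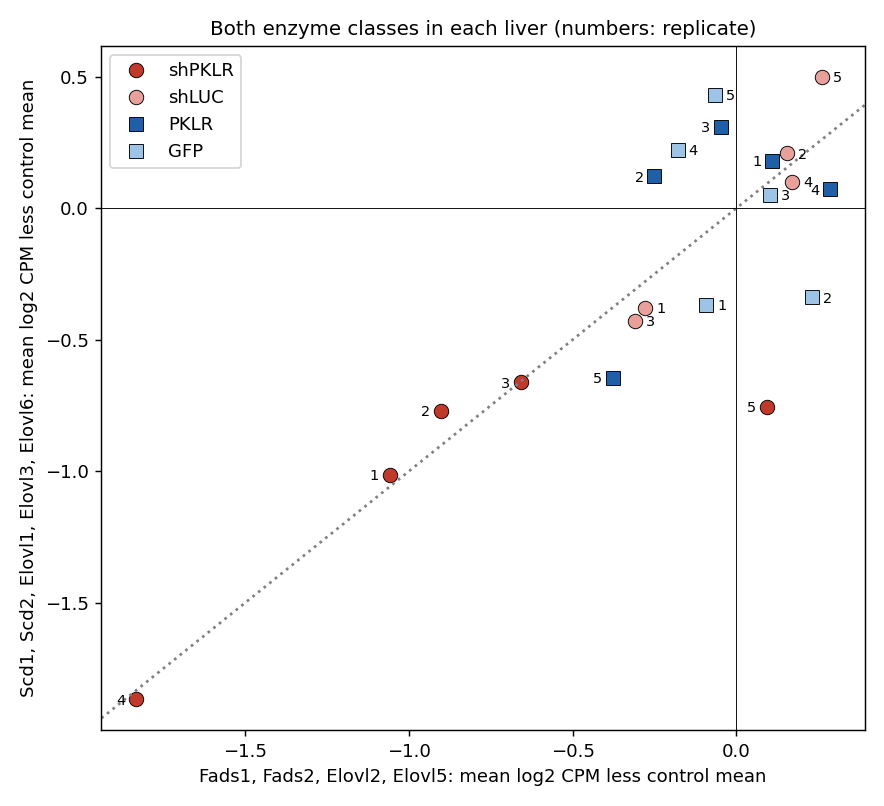
Mean log2 CPM of the saturated and monounsaturated enzymes (vertical) against that of the polyunsaturated enzymes (horizontal) in each liver, each less the mean of its own control group; numbers are replicates and the dotted line marks equal shifts. The shPKLR livers 1 to 4 lie along the line below the controls, and shPKLR replicate 5 lies at 0.09 for the polyunsaturated and -0.75 for the saturated and monounsaturated class.

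The overexpression comparison addresses which of these enzymes differ when Pklr is raised. No member passed in PKLR against GFP livers (0 of 9 by edgeR, DESeq2 and limma-voom), while 2.03% of the 15842 genes tested did so in edgeR. The median log2 fold change of the 9 was -0.03, against 0.01 over all genes. Elovl6 alone had an unadjusted p under 0.05, against 18.8% of all genes, and in none of the 9 were the groups free of overlap, which held for 4.87% of all genes.

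Elovl6 stood at 125, 105, 146, 98.7 and 59.8 CPM in PKLR livers, against 68.5, 77.7, 70.2, 82.7 and 93.7 CPM in GFP livers. Of the PKLR livers, 4 lay above every GFP liver and PKLR replicate 5 below every one. The log2 fold change was 0.46 (95% interval 0.04 to 0.88; SE 0.19; edgeR adjusted p = 0.226).
Scd1 stood at 12221, 7978, 11682, 8948 and 3030 CPM in PKLR livers, against 5462, 4517, 10940, 12768 and 14419 CPM in GFP livers. The groups covered much the same range, with PKLR replicate 5 the lowest of the 10 livers. Its log2 fold change was -0.12 with a wide 95% interval, -1.01 to 0.77, and it was 0.10 without PKLR replicate 5 and 0.07 without GFP replicate 5. For Scd2 the log2 fold change was 0.06 (95% interval -0.87 to 0.98), with the same PKLR replicate 5 lowest, at 33.6 CPM.

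Elovl5 averaged 976 ± 311 CPM in PKLR livers and 864 ± 86.0 CPM in GFP livers (SD, n = 5 each), a log2 fold change of 0.19 (95% interval -0.24 to 0.61). Its GFP livers kept within 760.3 to 935 CPM while its PKLR livers ran from 571 in replicate 5 to 1350 in replicate 3. For the other polyunsaturated enzymes the 95% interval was -0.22 to 0.19 for Elovl2, -0.45 to 0.20 for Fads1 and -0.56 to 0.33 for Fads2. For Elovl1 it was -0.17 to 0.10 and for Elovl3 -0.59 to 0.43. Every one of these intervals leaves out a change of 2-fold, 1.00 on the log2 scale, in either direction, whereas those of Scd1 and Scd2 do not leave out changes near that size.

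The class difference was -1.47, -1.17, -1.18, -1.75 and -1.81 in PKLR livers, against -1.81, -2.11, -1.59, -1.14 and -1.04 in GFP livers. Both groups were widely spread and overlapped, with means of -1.48 ± 0.30 in PKLR livers and -1.54 ± 0.45 in GFP livers (SD, n = 5 each). Some marker lists of other cell types were lower in PKLR livers and others were not, with 0 markers passing in edgeR. Macrophage markers were lower in 3 of 6 and endothelial markers in 2 of 5, and the 1 adipocyte marker tested was higher. An unadjusted p under 0.05 was held by 18.8% of all genes. Stellate cell and fibroblast markers were lower in 6 of 6, 5 of them at an unadjusted p under 0.05, and summed to between 119 and 228 CPM in PKLR livers and between 184 and 390 CPM in GFP livers. Lymphocyte markers were lower in 5 of 5 (1 at an unadjusted p under 0.05), with sums of 4.90 to 10.4 CPM in PKLR livers and 5.66 to 18.98 CPM in GFP livers. Erythroid markers were lower in 4 of 4 (2 at an unadjusted p under 0.05), with sums of 292 to 576 CPM in PKLR livers and 322 to 900.1 CPM in GFP livers. Cholangiocyte markers were lower in 4 of 4 (1 at an unadjusted p under 0.05), with sums of 6.68 to 11.1 CPM in PKLR livers and 10.1 to 14.9 CPM in GFP livers. The part of these cells in the values of the enzymes was not tested.

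**Figure D3:**
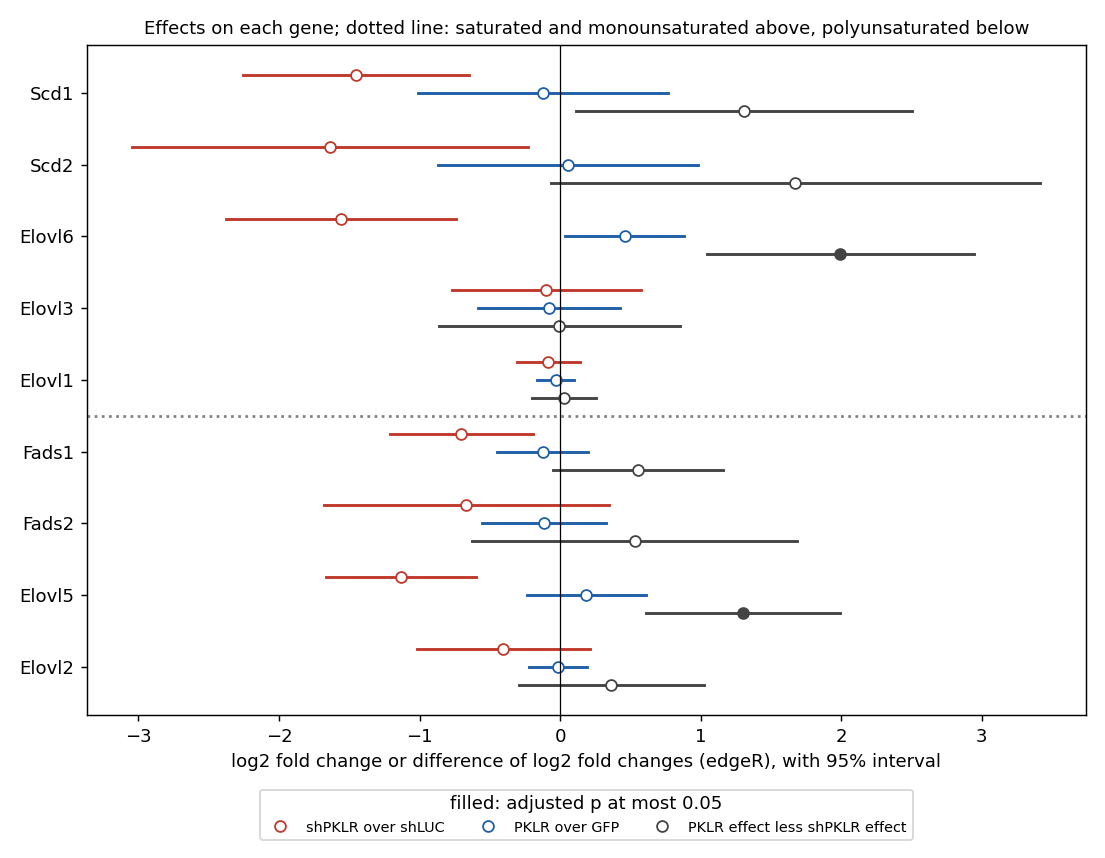
Log2 fold change of each gene with its 95% interval (edgeR) for shPKLR over shLUC (red), PKLR over GFP (blue) and the difference between these effects (grey); filled points pass an adjusted p of 0.05. Only the differences of Elovl6 (1.99) and Elovl5 (1.30) are filled among these 27 points.

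Whether a gene responded differently to raising and to lowering Pklr was tested in 1 model of all 20 livers, as the overexpression effect less the knockdown effect. This difference was positive and passed for Elovl6 and Elovl5, 2 of 9 members, against 2.75% of the 16407 genes tested that passed as higher; 3 of 9, Scd1 with them, had an unadjusted p under 0.05, against 25.7% of all genes. For Elovl6 it was 1.99 (95% interval 1.04 to 2.94; SE 0.46; edgeR adjusted p = 0.0165), which is the 0.46 of overexpression set against the -1.56 of knockdown. For Elovl5 it was 1.30 (95% interval 0.61 to 1.99; SE 0.33; edgeR adjusted p = 0.0279), from 0.19 and -1.13. Elovl6 passed in each of the 20 fits that left out 1 liver, with edgeR adjusted p between 0.00552 and 0.0369. Elovl5 did not pass without shLUC replicate 2, shLUC replicate 5 or PKLR replicate 3, where its edgeR adjusted p reached 0.0558. Markers of other cell types also passed in this difference, all as lower, as did 2.75% of all genes, and they are named here after their values were seen. They were Trem2 of the 6 macrophage markers (-2.37, SE 0.67, edgeR adjusted p = 0.0438), and Col3a1 (-1.66, SE 0.43, edgeR adjusted p = 0.0294) and Des (-1.01, SE 0.27, edgeR adjusted p = 0.0349) of the 6 stellate cell and fibroblast markers. Of the 20 fits without 1 library these calls were lost in 14 for Trem2, 8 for Col3a1 and 13 for Des. The macrophage list was lower in 6 of 6 (median -0.49), the stellate cell and fibroblast list in 5 of 6 (median -0.72) and the lymphocyte list in 5 of 5 (median -0.81, 0 passing in edgeR and 1 at an unadjusted p under 0.05), against a median of -0.06 over all genes. Their part in the differences of Elovl6 and Elovl5 was not tested.

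The remaining differences did not pass. Those of Scd1 (1.31, 95% interval 0.11 to 2.50; edgeR adjusted p = 0.159) and Scd2 (1.67, 95% interval -0.07 to 3.41; edgeR adjusted p = 0.211) were as large as that of Elovl5 but less precise. On the polyunsaturated side Fads1 was at 0.56 (edgeR adjusted p = 0.232), Fads2 at 0.53 (edgeR adjusted p = 0.564) and Elovl2 at 0.37 (edgeR adjusted p = 0.479). Elovl1 at 0.03 and Elovl3 at -0.01 were near 0. The class median was 1.31 for the saturated and monounsaturated enzymes and 0.54 for the polyunsaturated ones, against -0.06 over all genes.

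The control groups were not at the same level, and both enter this difference. Pklr itself averaged 118 ± 34.5 CPM in GFP livers and 479 ± 116 CPM in shLUC livers (SD, n = 5 each). Its GFP over shLUC log2 fold change was -2.02 (95% interval -2.63 to -1.40; SE 0.30; edgeR adjusted p = 0.00132). The 2 experiments thus compared Pklr against different control levels, with PKLR livers at 741 ± 210 CPM (SD, n = 5). In GFP livers Elovl6 was at 78.5 ± 10.2 CPM, against 213 ± 118 CPM in shLUC livers (SD, n = 5 each), a log2 fold change of -1.44 (95% interval -2.12 to -0.76; SE 0.33; edgeR adjusted p = 0.0129). Of the 9 members 7 were lower in this contrast. Elovl6 was the 1 that passed as lower, as did 2.33% of the 16407 genes tested, and the 1 with an unadjusted p under 0.05, against 19.7%. Elovl6 averaged 107 ± 32.3 CPM in PKLR livers and 72.9 ± 28.3 CPM in shPKLR livers (SD, n = 5 each), so that the shLUC mean stood above those of the other 3 groups. The livers overlapped, with shLUC replicates 1 and 3 at 89.2 and 115 CPM and PKLR livers between 59.8 and 146 CPM. In GFP livers 4 markers of other cell types, also named after their values were seen, passed as higher than in shLUC livers, as did 3.47% of all genes. Col1a1 (2.05) and Col3a1 (1.69) of the stellate cell and fibroblast list and Trem2 (2.29) of the macrophage list did so in each of the 20 fits without 1 library, and Sox9 (1.04) of the cholangiocyte list in 9 of 20. The stellate cell and fibroblast list had a median of 0.53 with sums of 184 to 390 CPM in GFP livers and 143 to 228 CPM in shLUC livers, and the macrophage list had sums of 59.8 to 189 CPM in GFP livers and 81.6 to 143 CPM in shLUC livers. Higher in GFP livers were 5 of 6 stellate cell and fibroblast, 4 of 6 macrophage and 3 of 4 cholangiocyte markers. Endothelial markers were lower in 4 of 5 (median -0.44, 2 at an unadjusted p under 0.05). The part of these cell types in the lower Elovl6 was not tested. Elovl5 had a GFP over shLUC log2 fold change of -0.43 (edgeR adjusted p = 0.332), Scd1 of -0.58 (edgeR adjusted p = 0.475), and the 4 polyunsaturated enzymes a median of 0.03. Vector, experiment and any batch cannot be told apart in the contrast of the controls, which shares its livers with the other comparisons.

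A list of 9 genes around fatty acid synthesis, called palmitate supply genes here (Acly, Acss2, Acaca, Acacb, Mcat, Fasn, Me1, Slc25a1 and Thrsp), showed another pattern across the experiments. In PKLR livers all 9 were higher and 7 of 9 passed as higher, against 1.19% of all genes. The 9 had a median log2 fold change of 1.09, against -0.03 for the desaturases and elongases. Fasn, the fatty acid synthase that makes palmitate, averaged 922 ± 218 CPM in PKLR livers and 399 ± 116 CPM in GFP livers (SD, n = 5 each; log2 fold change 1.22, SE 0.23, edgeR adjusted p = 0.0259). Acly, the ATP citrate lyase, rose by 1.59 (SE 0.26, edgeR adjusted p = 0.018) and Acaca, an acetyl-CoA carboxylase, by 0.92 (SE 0.14, edgeR adjusted p = 0.00889). Acly and Acaca passed in each of the 10 fits without 1 library; Acss2, Acacb, Fasn, Me1 and Thrsp lost their call in 3 to 8 of the 10, Fasn without PKLR replicate 1, 2 or 3 or GFP replicate 3 or 4. With no filter on low counts Acss2, Me1 and Thrsp did not pass, and in 1 fit of all 20 livers Fasn and Me1 did not. In shPKLR livers all 9 were lower with 0 passing in edgeR (8 of 9 at an unadjusted p under 0.05, against 15% of all genes). Their median was -1.43, beside a median of -0.70 for the desaturases and elongases. In the difference between effects 8 of the 9 supply genes passed as higher, against 2.75% of all genes. In GFP against shLUC livers the same number passed as lower, against 2.33% of all genes, so the levels of the controls enter here too. Of these Slc25a1, the citrate carrier of mitochondria, was the least firm. Its call in the difference (0.59, edgeR adjusted p = 0.0454) was kept, of the 20 fits without 1 library, in the 7 without shPKLR replicate 2, 4 or 5, PKLR replicate 1, or GFP replicate 2, 3 or 5. Its call in the controls (-0.43, edgeR adjusted p = 0.0383) was lost without any 1 of the 5 shLUC replicates or GFP replicate 1 or 4, and both were lost with no filter on low counts. The other 7 passed in all 20 fits in both contrasts.

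**Figure D4:**
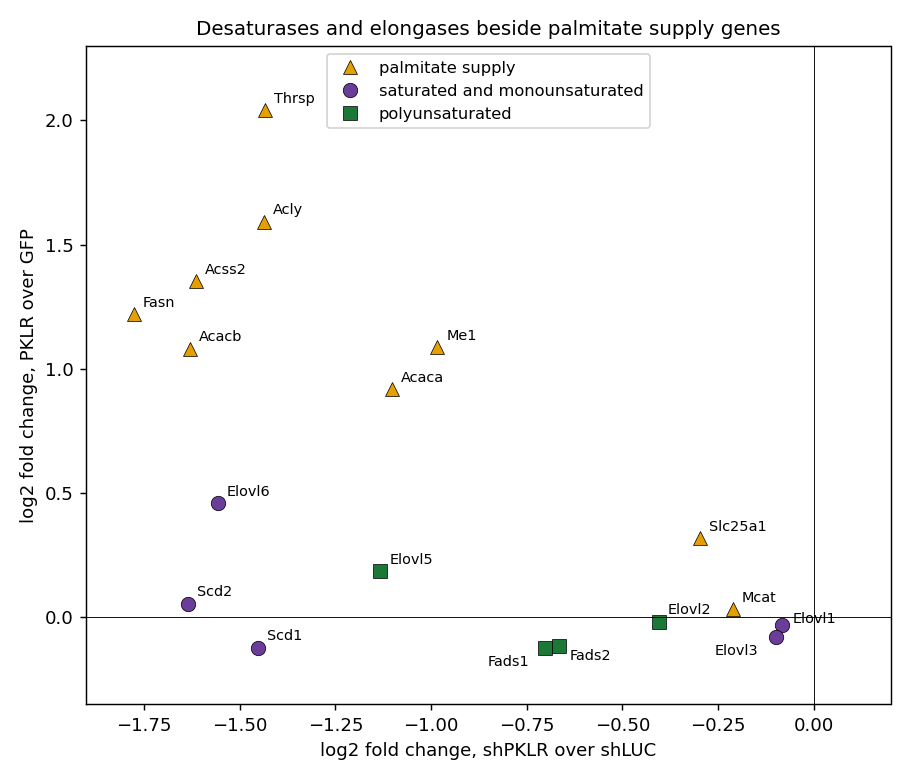
Log2 fold change for shPKLR over shLUC (horizontal) and PKLR over GFP (vertical) of the 9 desaturases and elongases (circles and squares) and of 9 palmitate supply genes (triangles). Scd1, Scd2 and Elovl6 share the left of the plot with most supply genes but lie between -0.12 and 0.46 on the vertical axis, where Fasn lies at 1.22 and Acly at 1.59. The supply genes reach up to -0.21 on the horizontal axis and down to 0.03 on the vertical axis.

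Other genes of the route were read from fixed lists. Of 8 further desaturases and elongases, Elovl4 was under the filter on low counts in every fit and Elovl7 in the knockdown. In the overexpression 5 of the 7 tested were lower and 1 passed as lower, as did 0.846% of all genes. This was Degs1, the desaturase that makes ceramide. Degs1 averaged 44.8 ± 3.14 CPM in PKLR livers and 56.8 ± 3.34 CPM in GFP livers (SD, n = 5 each), a log2 fold change of -0.33 (SE 0.07, edgeR adjusted p = 0.0373). Its call was kept in 2 of 10 fits without 1 library, those without PKLR replicate 3 and without GFP replicate 5. It was also lost with no filter on low counts and in 1 fit of all 20 livers. In the knockdown 0 of 6 passed, and the smallest p were those of Scd4 (-1.69, edgeR adjusted p = 0.292), Scd3 (-1.62, edgeR adjusted p = 0.305) and Fads6 (-0.31, edgeR adjusted p = 0.41).

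Desaturases draw electrons from cytochrome b5 and its reductase, and elongation needs a reductase and dehydratase cycle; this list held 11 genes. In the difference between the effects 2 of them passed as higher and 1 as lower, against 2.75% of all genes in each direction. Cyb5r3, the main reductase of cytochrome b5, averaged 484 ± 52.6 CPM in shPKLR livers and 751 ± 102 CPM in shLUC livers, and 616 ± 55.1 CPM in PKLR livers and 454 ± 86.7 CPM in GFP livers (SD, n = 5 each). Neither group pair overlapped. Of all genes, 1.81% were lower without overlap in the knockdown, and 4.87% were free of overlap in either direction in the overexpression. The difference between effects of Cyb5r3 was 1.07 (SE 0.19, edgeR adjusted p = 0.00257). For Cyb5b, a membrane cytochrome b5 of mitochondria, it was 0.83 (SE 0.24, edgeR adjusted p = 0.0457), a call kept, of the 20 fits without 1 library, in the 6 without shPKLR replicate 2, 3, 4 or 5 or GFP replicate 3 or 5. Cyb5r1, another reductase of the family, went the other way, at -0.99 (SE 0.20, edgeR adjusted p = 0.00859). In GFP against shLUC livers Cyb5r3 was the 1 of the 11 that passed, as lower (-0.73), as did 2.33% of all genes. It passed there in each of the 20 fits without 1 library, so the levels of the controls enter its difference. Within the knockdown and within the overexpression 0 of the 11 passed in edgeR. At an unadjusted p under 0.05 there were 5 and 6 of them, against 15% and 18.8% of all genes.

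Of 8 acyl-CoA synthetases, which activate fatty acids for these enzymes, 7 were tested. In the difference between the effects 1 passed as higher, as did 2.75% of all genes: Acsl5, at 0.92 (SE 0.23, edgeR adjusted p = 0.0246). Within each experiment 0 of the 7 passed in edgeR, with 2 at an unadjusted p under 0.05 in each, against 15% of all genes in the knockdown and 18.8% in the overexpression. Of 10 genes of polyunsaturated fatty acid handling 0 passed in the knockdown, the overexpression or their difference in edgeR. At an unadjusted p under 0.05 there were 1, 2 and 2, against 15%, 18.8% and 25.7% of all genes. Among the 10, Lpcat3, which puts polyunsaturated chains into phospholipids, was at -0.40 in the knockdown (edgeR adjusted p = 0.287). Of 12 regulators 3 passed as higher in the difference, as did 2.75% of all genes. They were Insig1, which holds back SREBP processing (1.85, SE 0.24, edgeR adjusted p = 0.000446), Srebf2, the SREBP gene of the sterol route (1.06, SE 0.22, edgeR adjusted p = 0.00968), and Mlx, the partner of ChREBP (0.43, SE 0.11, edgeR adjusted p = 0.034). In GFP against shLUC livers Insig1 was the 1 regulator that passed, as lower (-1.18), as did 2.33% of all genes. It passed there in each of the 20 fits without 1 library, so the levels of the controls enter its difference. The call of Mlx was lost without shLUC replicate 1, 2 or 5, PKLR replicate 4 or 5, or GFP replicate 1 or 2, and with no filter on low counts. Within each experiment 0 of the 12 passed in edgeR, with 4 at an unadjusted p under 0.05 in each, against 15% of all genes in the knockdown and 18.8% in the overexpression.

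Across the 20 livers the closest pairs of members lay on the polyunsaturated side, and some near pairs crossed the line between the classes. By the root mean square difference of log2 CPM deviations, Fads1 and Elovl2 were the closest pair of the 36, at 0.23. Fads1 and Elovl5 followed at 0.36, and Fads1 and Fads2 at 0.42. This measure also depends on how much a gene varies: Elovl1, which varied least, lay 0.44 from Fads1, whose own deviation was 0.44. Elovl6 was nearest to Elovl5, at 0.47, which is on the polyunsaturated side, and lay 0.58 from Scd1. Among 11795 genes compared, the 4 nearest to Elovl6 were Acaca (0.34), Fasn (0.40), Pgd (0.41) and Me1 (0.41). The nearest to Scd1 were Cd36 (0.50), Tceal8 (0.50), Fam126a (0.51) and Pltp (0.53), and those nearest to Fads1 were Usp22 (0.20), Tspan31 (0.21), Myo1d (0.23) and Elovl2 (0.23). These livers share the 4 vectors and their libraries, so the values describe likeness in these 20 samples.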

How the data were processed

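RNA from 20 livers was sequenced after stranded total RNA library preparation, per the labels' protocols. The authors deposited 2 tables of raw read counts per gene, 1 per experiment; the submitters' processing notes name HISAT2 and DESeq2 with GRCm38 and mm10. No source used here gives the counting program or whether it used strand. Columns were matched to livers by name, with 0 left unmatched. Symbols and exon lengths came from GENCODE release M21. CPM used TMM factors over all livers; RPKM is CPM per exon kilobase. Tests used edgeR 4.0.16 (quasi-likelihood, robust, filterByExpr, TMM) in R 4.3.3 with Benjamini-Hochberg adjusted p at 0.05 over all genes; DESeq2 1.42.0 and limma 3.58.1 were alternatives, with RLE factors, other filters, a replicate block, 1 fit of all livers and each liver left out. Class values used log2 CPM with a prior count of 2. Members, lists and the rule for naming genes were chosen with earlier results of these data known: all members, the called genes of each list or up to 3 with the smallest p, and the 4 nearest genes of Scd1, Elovl6, Fads1 and Fads2 with a mean of at least 2 CPM (those of Fads2 are not reported here). On simulated counts, 2-fold changes were called in 63.9% of cases for the knockdown (15665 genes), 77.6% for the overexpression (15892 genes) and 49.5% for the difference (16458 genes). The changed genes were picked at random, and the simulated knockdown gave 165 calls where the fit of the livers gave 1. These shares are therefore no measure of power for the 9 members.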

Additional observations from a re-analysis of the deposited data

Results flagged for a closer look

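In the shPKLR group 1 liver stood apart in the class difference, the mean log2 CPM of saturated and monounsaturated less polyunsaturated enzymes. Replicate 5 was at -1.95 while the other shPKLR livers ran between -1.13 and -0.97, a gap that is 0.832 of the whole range, above the Dixon limit of 0.71 for 5 samples. Of the 40 groups examined this was the 1 past its limit, and chance alone passes about 1 in 20.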

How the results depend on the processing

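The alternatives moved the counts of calls more than the effects. For the knockdown, 1 gene was called in the edgeR fit, 7 with RLE size factors, 17 with no filter on low counts, 260 with DESeq2, 8 with limma-voom, 3 with the replicate block, 114 in 1 fit of all 20 libraries and between 1 and 12 without 1 library. Of the members, DESeq2 called 3 there and the fit of all 20 libraries 2, Elovl5 and Elovl6. For the overexpression, DESeq2 called 1107 genes and the block 544, against 322, with 128 to 469 without 1 library. For the difference between effects DESeq2 called 1626 genes against 902, with 485 to 1384 without 1 library. The counts for GFP over shLUC ran from 415 to 1315 without 1 library, against 953. The cause was not tested.

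Replicate numbers did not pair the livers: same-numbered livers had correlations of their deviations between -0.20 and 0.35 in the knockdown and between -0.11 and 0.26 in the overexpression. The best partner of a liver was its own number in 1 of 5 and 2 of 5 cases. With the number as a block, 1 member, Elovl5, passed in the difference; between 1 and 2 members passed without 1 library. In the block fit Elovl6 was at 1.85 (edgeR adjusted p = 0.067). GFP over shLUC could not be fitted with the block, since these groups lie in different blocks.

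The class difference of the knockdown was -0.47 without Elovl1 and Elovl5 and between -0.21 and 0.03 without 1 library; that of the overexpression was between -0.08 and 0.19 without 1 library. Signs turned where effects were near 0: Scd2 in the overexpression was -0.040 with limma-voom, and the difference of Elovl3 was 0.026 with RLE factors, 0.022 with no filter and 0.026 with DESeq2. Without 1 library, log2 fold changes ran from -0.30 to 0.096 for Scd1, -0.16 to 0.28 for Scd2, -0.23 to 0.064 for Elovl3 and -0.065 to 0.030 for Elovl2 in the overexpression. They ran from -0.33 to 0.17 for Elovl3 in the knockdown, and from -0.027 to 0.067 for Elovl1 and -0.27 to 0.23 for Elovl3 in the difference. For GFP over shLUC they ran from -0.58 to 0.034 for Scd2, -0.061 to 0.030 for Elovl1 and -0.12 to 0.039 for Fads1. Every other member effect kept its sign under all alternatives run. With 5 livers a group, the 95% intervals of Scd1 and Scd2 span a 2-fold change in each comparison except Scd2 in the overexpression.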
